A study of Mus musculus with 2 samples.

Results

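The genes described here code for splicing factors and for the proteins of small nuclear ribonucleoproteins (snRNPs). They were taken by name, as every gene symbol that begins with Snrp, Sf3a, Sf3b, Srsf, its older form Sfrs, Prpf, U2af, Hnrnp or Lsm followed by a digit, pseudogenes left out. The rule found 78 of the 22020 gene symbols in the table, and each symbol was represented by its transcript with the highest mean level. RNA-seq had been made from sorted LSK cells, the lineage-negative, c-Kit-positive, Sca-1-positive blood-forming fraction that holds stem cells and early progenitors. One library came from p53 KO mice and 1 from Utx/p53 DKO mice. Both came from C57BL/6 animals aged 8 weeks, so loss of p53, a tumour suppressor, was common to both, and the groups differed by loss of Utx (Kdm6a), a histone H3 lysine 27 demethylase. The labels used here do not say which promoter or deleter drove the Utx loss, or how many animals gave cells.

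With 1 library per genotype there was no replicate, no test and no p-value. Genotype, library and animal cannot be told apart, and every difference below is a difference between these 2 libraries. Where values are given as a pair, the p53 KO library comes first. Levels are RPKM, read counts divided by the length of the transcript and the total of the library. Differences are log2(RPKM + 1) in the DKO library minus the same in the p53 KO library, a scale that understates differences of genes near 0. Genes that averaged 1 RPKM or more were called measured, and a gene was called higher or lower where its difference reached 2-fold. Bounds in parentheses after a ratio of RPKM are exact 95% limits (Clopper-Pearson) from the read counts behind the values, and they cover counting error only.

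Introns are removed from pre-mRNA by the spliceosome, which assembles on each intron from the U1, U2, U4, U5 and U6 snRNPs. U1 recognises the 5′ splice site, and U2, helped by U2AF and held by the SF3A and SF3B complexes, recognises the branch site. Each snRNP is built on a ring of Sm proteins, or of LSm proteins in the case of U6, and PRPF proteins link the tri-snRNP and drive the later steps. SR proteins and hnRNPs bind exons and introns around these sites and raise or lower their use. Point mutations of SF3B1, SRSF2, U2AF1 and ZRSR2 are recurrent in human myelodysplastic syndromes, which arise in stem and progenitor cells of this kind.

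The stretches upstream of 3 genes are shown because, of the measured members and on log2(RPKM + 1), Snrpa and Sf3a2 had the largest differences below 0 and Snrpg the largest above. Each is the 250 bases before a RefSeq transcription start in the mouse assembly GRCm38.p6, read 5′ to 3′ on the gene's strand. Capitals mark matches to CACGTG (an E-box), CCGGAAG (an ETS-type motif), CCAAT or the NRF1 palindrome on either strand, and no 2 matches overlapped. Snrpa has 2 annotated starts, on the minus strand, at chr7:27196272-27196521 and chr7:27195761-27196010. Sf3a2 lies on the plus strand at chr10:80798485-80798734, and Snrpg on the plus strand at chr6:86371290-86371539.
Snrpa, first start: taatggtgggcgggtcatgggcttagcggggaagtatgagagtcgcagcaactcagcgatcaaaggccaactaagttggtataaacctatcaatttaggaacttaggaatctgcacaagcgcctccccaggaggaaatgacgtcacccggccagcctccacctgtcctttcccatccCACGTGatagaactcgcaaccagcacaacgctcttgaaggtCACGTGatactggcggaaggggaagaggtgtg
Snrpa, second start: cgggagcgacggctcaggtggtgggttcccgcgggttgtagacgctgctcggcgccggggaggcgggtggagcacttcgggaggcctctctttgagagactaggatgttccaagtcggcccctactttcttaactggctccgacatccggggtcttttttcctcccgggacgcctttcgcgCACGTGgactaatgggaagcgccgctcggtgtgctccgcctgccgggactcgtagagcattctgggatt
Sf3a2: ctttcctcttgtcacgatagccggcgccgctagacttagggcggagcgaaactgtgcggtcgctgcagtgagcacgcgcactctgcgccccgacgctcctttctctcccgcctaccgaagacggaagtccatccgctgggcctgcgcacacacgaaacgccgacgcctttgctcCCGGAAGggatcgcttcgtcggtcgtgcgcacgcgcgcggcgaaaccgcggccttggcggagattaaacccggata
Snrpg: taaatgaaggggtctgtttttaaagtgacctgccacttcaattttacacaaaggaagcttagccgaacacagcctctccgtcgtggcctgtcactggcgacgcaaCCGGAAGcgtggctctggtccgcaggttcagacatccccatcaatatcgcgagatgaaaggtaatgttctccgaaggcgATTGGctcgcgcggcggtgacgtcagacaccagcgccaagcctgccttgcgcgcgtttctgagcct
The Snrpa stretches held CACGTG with its first base 73 and 32 bases before the first start and 69 bases before the second. Sf3a2 held CCGGAAG at 76 bases, and Snrpg held CCGGAAG at 145 bases and the reverse of CCAAT at 66 bases. CACGTG was found in 6.02% of all 32851 promoters of this length in the RefSeq table and in 8.45% of the 11309 promoters of measured genes. It was found in 8.99% of the 89 promoters that the table gives for 66 of the members. CCGGAAG was found in 24.7% of the members' promoters, in 14.3% of those of measured genes and in 6.91% of all. The corresponding shares of CCAAT were 46.1%, 35.9% and 33.8%, and those of the NRF1 palindrome were 1.12%, 1.67% and 0.782%. Members' promoters held a median of 20 CpG dinucleotides, against 15 in measured genes and 6 in all promoters. These matches describe letters in a window and say nothing of binding.

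The read totals behind the RPKM values were 17088105 in p53 KO cells and 19926294 in DKO cells. Kdm6a was at 5.32 RPKM in p53 KO cells and 1.26 in DKO cells (479 and 132 reads), the direction its label gives. Trp53 was at 19.4 and 12.9 RPKM, and the table does not show whether its reads fall in a deleted part. Of the genes that define the gate, Ly6a (Sca-1) was at 255 and 281 RPKM, and Kit was at 64.2 and 16.0. Markers of other cell types differed too. Of 16 granulocyte and monocyte markers 14 were higher with DKO and 2 lower, and their summed share of all RPKM went from 1.76% to 15.3%. Of 10 markers of the gate and of early progenitors 7 were lower (0.301% and 0.105%), as were 7 of 8 erythroid (0.374% and 0.0363%) and 10 of 10 lymphoid and B cell markers (0.165% and 0.0152%). Among T and NK cell markers 7 of 10 were higher and 2 lower, with a share of 0.0754% and 0.0459%, and 6 of 7 macrophage markers were higher (0.0146% and 0.0485%). No gene of these lists was at 0 in the p53 KO library, and 1 erythroid and 1 macrophage marker was at 0 in the DKO library. In such bulk samples, fewer cells of a type and less RNA per cell cannot be told apart, and the part of the cell mixture in the results below was not tested.

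Of the 78 genes, 75 were measured, of 11356 measured genes in all. None of the 75 was higher in the DKO library, where 6.6% of all measured genes were. Snrpa, Sf3a2 and Prpf6, 3 of the 75, were lower, where 13.5% of all measured genes were. The remaining 72 lay within 2-fold, against 79.9% of all measured genes. The median difference of the 75 was -0.28, and that of all measured genes was -0.24. Since the all-gene median was not at 0, differences are also given relative to it, and on that scale the members' median was -0.04, with 34 members above and 41 below. Relative to the all-gene median, 1 member was 2-fold higher (9.63% of all genes were) and 2 were 2-fold lower (8.76%). Before this shift, 18 of the 75 had the higher RPKM in the DKO library, against 34.8% of all measured genes. How genes split between higher and lower depended on scaling. Of all called genes, 32.9% were higher with the deposited RPKM, 15.5% with equal summed RPKM, 43.1% with equal upper quartiles, 48.2% centred on genes that averaged 5 RPKM or more, and 72.5% with the authors' own normalization constants. These settings moved the all-gene median to -0.55, -0.10, -0.06 and 0.28, and each group of genes is therefore placed against it.

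**Figure D1:**
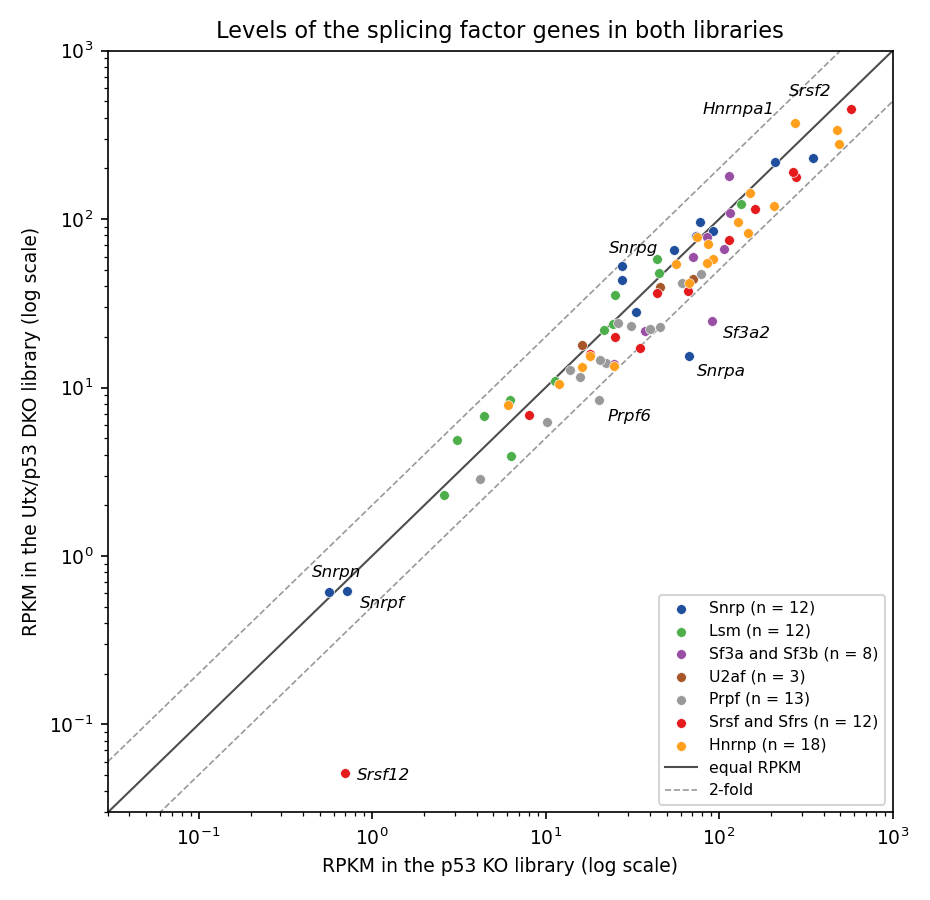
Level of each of the 78 splicing factor genes in the p53 KO library (x axis, RPKM, log scale) and in the Utx/p53 DKO library (y axis, RPKM, log scale), 1 point per gene, coloured by name prefix, with a solid line at equal RPKM and dashed lines at 2-fold. Most points lie between the dashed lines and below the solid one, Snrpa, Sf3a2, Prpf6, Srsf12 and, by a small margin, Srsf6 lie below the lower dashed line, and Srsf12, Snrpn and Snrpf sit at under 1 RPKM.

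The middle 50% of members spanned 0.61 on the log2 scale, against 0.88 for all measured genes. Among genes that averaged 20 RPKM or more, where counting error is small, the span was 0.64 over 53 members and 0.89 over 3286 genes. Summed over the members, RPKM made up 1.81% of the total of all genes with p53 KO and 1.10% with DKO. This share also depends on the top 10 genes, which took 8.17% of that total with p53 KO and 19.98% with DKO. By prefix, relative medians were highest for the Snrp genes (0.30, 10 measured of 12) and the Lsm genes (0.28, 12 measured). They were near the all-gene median for U2af (0.04, 3 genes) and Sf3b (0.12, 5 genes). Those of Hnrnp (-0.11, 18 genes), Srsf and Sfrs (-0.24, 11 measured of 12), Prpf (-0.30, 13 genes) and Sf3a (-0.56, 3 genes) were below it.

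Proteins of the Sm ring, the core shared by the U1, U2, U4 and U5 snRNPs, lay above the all-gene median in 5 of 6 measured genes, with a relative median of 0.41. The single largest upward difference of any member was that of Snrpg, which codes for SmG (transcript NM_026506). It was at 27.4 RPKM in p53 KO cells and 52.9 in DKO cells, from 184 and 414 reads, a ratio of 1.93 (1.62 to 2.31). This is a difference of 0.92, just short of 2-fold, and of 1.16 relative to the all-gene median. Its ring partners were closer to equal RPKM. Snrpe was at 55.0 and 65.4 RPKM, Snrpd2 at 77.3 and 96.4, Snrpd1 at 74.0 and 79.0, and Snrpd3 at 211 and 217. Snrpb, which codes for SmB and SmB′ and is the most abundant of the ring, was the exception at 348 and 231 RPKM (-0.59, or -0.35 relative to all genes). The 2 Sm genes under the filter were Snrpf, listed at 0.720 and 0.617 RPKM, and Snrpn, the SmN gene expressed mainly in brain, at 0.564 and 0.611 RPKM (19 and 24 reads). Snrpf, which codes for SmF, was thus listed far below its ring partners. Reads that match several places may have been counted in more than 1 way, which no source used here states, and genes with near-identical pseudogene copies, such as Snrpg, Snrpe and Hnrnpa1, are uncertain.

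Of 8 genes listed for the LSm rings, Lsm8 had no entry under that symbol. The 7 others were measured and all lay above the all-gene median, with a relative median of 0.62. The Lsm2 to Lsm7 proteins take part in the ring that holds the 3′ end of U6 RNA, and with Lsm1 they form a cytoplasmic ring that promotes mRNA decapping. Lsm1, specific to the decay ring, was at 3.10 and 4.89 RPKM (125 and 230 reads, ratio 1.58, 1.26 to 1.98). Lsm5 was at 4.44 and 6.81 RPKM from 38 and 68 reads, with an interval of 1.02 to 2.35 that nearly reaches equality. Lsm2 was at 25.1 and 35.6 RPKM and Lsm4 at 6.27 and 8.47. The most abundant, Lsm3, was at 134 and 122 RPKM, so its place above the median (0.11) came with a lower RPKM. Among LSm proteins outside these rings the relative median was 0.19 over 5 genes. Lsm10, a subunit of the U7 snRNP that acts on histone pre-mRNA, was at 44.2 and 57.9 RPKM, and Lsm11, its partner there, at 2.60 and 2.31. Lsm14b, an RNA granule protein, was the only one below the median, at 6.30 and 3.94 RPKM.

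Among the proteins specific to U1, levels differed in opposite directions. Snrpa codes for the A protein of U1, which binds a stem-loop of U1 RNA (transcript NM_001046637, chromosome 7). It was at 66.9 RPKM in p53 KO cells and 15.5 in DKO cells, from 1473 and 398 reads. The ratio was 0.232 (0.207 to 0.259), or 4.32-fold lower, the largest difference of any measured member on log2(RPKM + 1), at -2.04. Snrpc, which codes for the C protein of U1 that stabilises pairing of U1 with the 5′ splice site, was higher in RPKM without reaching 2-fold, at 27.4 and 43.6 (ratio 1.59, 1.40 to 1.82). The third U1-specific protein, U1-70K, has the symbol Snrnp70, which the name rule does not take, and it was lower at 74.4 and 33.4 RPKM (-1.13). The U2 proteins Snrpa1 (91.8 and 84.8 RPKM) and Snrpb2 (33.4 and 28.2 RPKM) lay close to the all-gene median, at 0.12 and -0.002 from it. Snrpb2 is the U2 relative of Snrpa, and the gap between them was larger than the counting error of either.

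Genes of the SF3A and SF3B complexes, which anchor U2 at the branch site, had a relative median of -0.22 over 8 genes, with 3 above and 5 below. Sf3a2 (transcript NM_013651, chromosome 10), a zinc finger subunit of SF3A, was at 91.2 RPKM in p53 KO cells and 24.8 in DKO cells. The reads were 2609 and 826 and the ratio 0.272 (0.251 to 0.294), a difference of -1.84. The other SF3A subunits were lower by less, Sf3a1 at 24.8 and 13.8 RPKM and Sf3a3 at 71.0 and 59.3. Sf3b1, the branch site clamp mutated in myelodysplastic syndromes, was at 85.5 and 78.8 RPKM (-0.12). Sf3b5, the smallest member of SF3B, was at 114 and 181 RPKM (ratio 1.58, 1.49 to 1.69). Over these 8 genes the differences ran from -1.84 to 0.66. Of the U2AF genes, whose products bind the 3′ splice site, U2af1 was at 16.3 and 17.9 RPKM, U2af2 at 71.0 and 44.3, and U2af1l4 at 45.6 and 39.6.

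PRPF genes lay below the all-gene median in 11 of 13 cases, with a relative median of -0.30. Prpf6 (transcript NM_133701, chromosome 2), the bridge between U5 and the U4/U6 pair in the tri-snRNP, was at 20.3 RPKM in p53 KO cells and 8.39 in DKO cells. Its reads were 1059 and 511, and its ratio was 0.414 (0.372 to 0.460), a difference of -1.18. Prpf39, a U1-associated factor, was just inside 2-fold at 45.7 and 22.9 RPKM (-0.97). Prpf19, a ubiquitin ligase of the catalytic steps, was at 39.8 and 22.2 RPKM. Prpf8, the scaffold around the catalytic RNA, was at 13.9 and 12.7 RPKM and Prpf38a at 26.2 and 24.1, the only PRPF genes above the all-gene median (0.12 each).

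SR proteins bind exonic enhancers through RNA recognition motifs and recruit the splicing machinery through arginine and serine repeats. Their relative median was -0.24 over 11 measured genes, with 2 above and 9 below. The group includes Sfrs18 (-0.04 relative to all genes), taken by its older symbol. Its current symbol, Pnisr, is listed with the SR-related genes outside the rule. Srsf2, mutated in myelodysplastic syndromes and the most abundant member of all, was at 578 and 452 RPKM (-0.35). Srsf6 was at 35.0 and 17.3 RPKM, a ratio of 0.494 that is past 2-fold in RPKM and just inside it on log2(RPKM + 1), at -0.98, and Srsf7 at 279 and 177. The highest of the group was Srsf4, at 18.0 and 15.9 RPKM, 0.07 above the all-gene median. Srsf12 stood under the filter, at 0.697 RPKM from 35 reads in p53 KO cells and 0.0512 RPKM from 3 reads in DKO cells, a ratio of 0.0735 with a counting interval of 0.0145 to 0.233. Srsf10, an SR protein that can act as a repressor, is described below by transcript.

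Among hnRNPs, abundant RNA-binding proteins that often oppose SR proteins, the medians of the A to D genes and the F to U genes lay on different sides of the all-gene median. This split is by the letter of the symbol only. Over all 18 Hnrnp genes the relative median was -0.11, with 7 above and 11 below. The 7 measured genes from Hnrnpa0 to Hnrnpd had a relative median of 0.18, with 5 above. The 11 from Hnrnpf to Hnrnpul2 had -0.39, with 2 above. Hnrnpa1, a classical repressor of exon inclusion, was at 272 and 373 RPKM (0.45, ratio 1.37, 1.33 to 1.41), and Hnrnpd, also called AUF1, which binds AU-rich mRNA, at 6.05 and 7.83. Hnrnpa2b1, the most abundant of its group, was at 480 and 337 RPKM and Hnrnpa3 at 67.3 and 41.9, so that these close relatives of Hnrnpa1 lay below the all-gene median (-0.27 and -0.43) and Hnrnpa1 above it (0.69). The F and H proteins bind runs of G, and Hnrnpf was at 488 and 280 RPKM (-0.80, ratio 0.573, 0.560 to 0.587), Hnrnph1 at 146 and 83.2, and Hnrnph3 at 24.9 and 13.4 (-0.84). Hnrnpk, which binds C-rich RNA, was at 208 and 120 RPKM. Of the F to U genes that the name rule takes, Hnrnpul2 was the highest relative to all genes (0.07), at 11.9 and 10.6 RPKM. The rule does not take Hnrpll and Hnrpdl, older symbols of Hnrnpll and Hnrnpdl. Hnrpll, by its letter an F to U gene, was at 7.93 and 13.2 RPKM (0.91 relative to all genes). Hnrpdl, by its letter an A to D gene, was at 23.7 and 19.3 RPKM (-0.05).

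**Figure D2:**
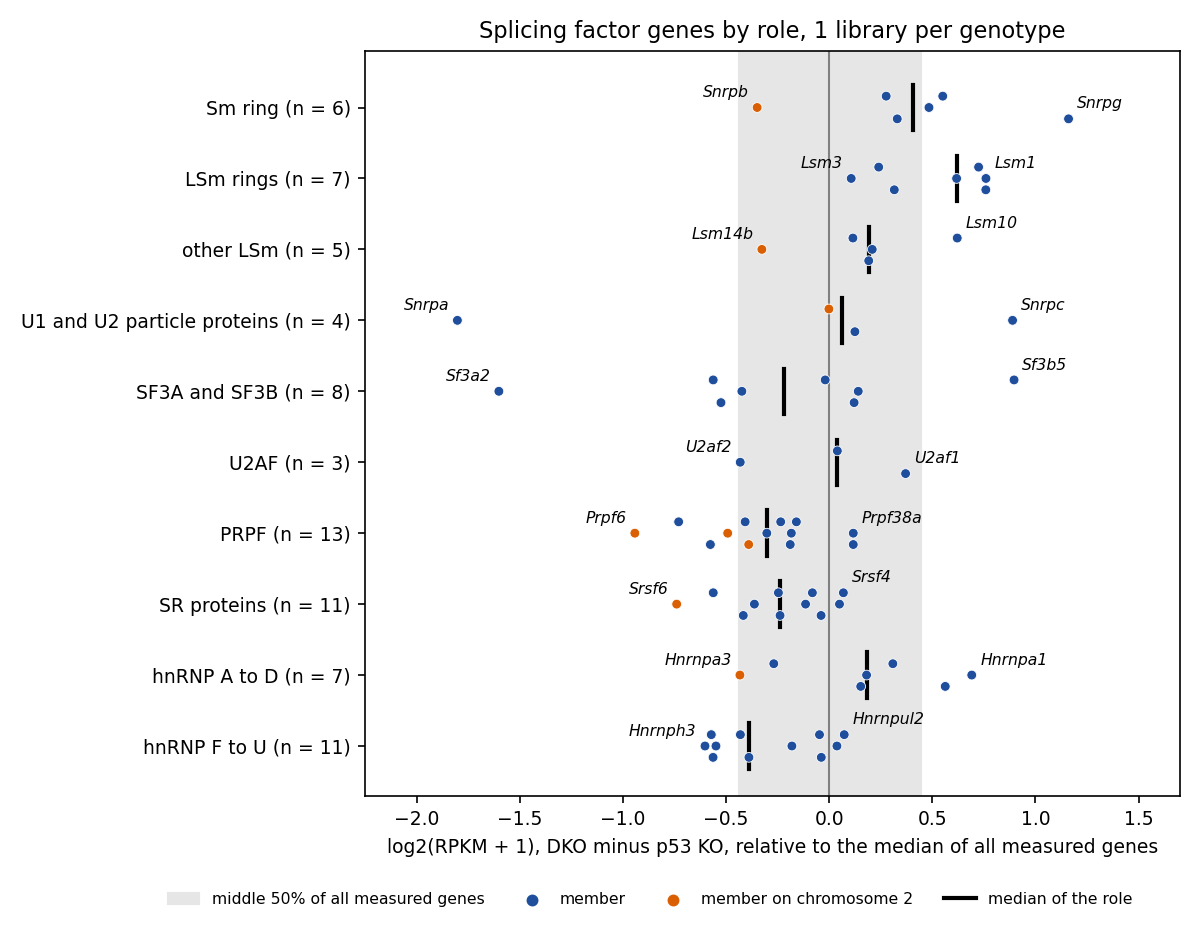
Difference of each of the 75 measured genes in log2(RPKM + 1), DKO minus p53 KO, relative to the median of all measured genes (x axis), in rows by role, with a black bar at the median of each role and grey shading over the middle 50% of all measured genes. The bars of the Sm ring (0.41) and LSm rings (0.62) lie to the right of 0, those of PRPF (-0.30), SR proteins (-0.24) and hnRNP F to U (-0.39) to the left, and Snrpa, Sf3a2 and Snrpg stand farthest out.

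Across 12 settings of pseudocount, filter, scaling, transcript choice and chromosome 2, the relative median of the Sm ring stayed between 0.18 and 0.48 and that of the LSm rings between 0.41 and 0.70. That of PRPF stayed between -0.43 and -0.24, of SR proteins between -0.36 and -0.16, of SF3A and SF3B between -0.34 and -0.15, of hnRNP A to D between 0.06 and 0.26 and of hnRNP F to U between -0.51 and -0.31. The U1 and U2 proteins (-0.06 to 0.13) and U2AF (-0.08 to 0.11) changed sides. Without centring on the all-gene median, the authors' constants put the medians of PRPF (0.04), SR proteins (0.12) and SF3A and SF3B (0.14) above 0, and equal summed RPKM put that of the Sm ring (-0.20) below 0.

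Transcript length went along with the difference. All 15 measured members with a transcript under 1000 bases lay above the all-gene median, and 19 of the 60 longer ones did. Over all measured genes the corresponding shares were 67.2% of 1318 and 47.7% of 10038. The short members include 5 of the 6 measured Sm genes, 5 of the 7 LSm ring genes, Snrpc, Sf3b5, Lsm10, U2af1 and U2af1l4. Of the ring genes with longer transcripts, Snrpb lay below and Lsm1 and Lsm6 above. The relative median under 1000 bases was 0.55 for members and 0.39 for all genes. From 1000 to 2000 bases it was -0.11 for 15 members and 0.12 for all genes, from 2000 to 4000 bases -0.31 for 32 members and -0.06 for all, and from 4000 bases -0.08 for 13 members and -0.13 for all. The rank correlation of length and difference was -0.39 across the 75 members and -0.18 across all measured genes. These points share both libraries, and genes are not independent replicates, so the values are a description. The part of length in the place of the Sm and LSm genes was not tested.

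At the top of the range of levels, members and other genes lay on different sides of the all-gene median. The 645 genes that averaged 100 RPKM or more had a relative median of 0.51, and the 16 members among them had -0.21. Of these 16, only Hnrnpa1 and Sf3b5 lay above the median of that class. The others include Hnrnph1, Hnrnpf, Hnrnpk, Srsf7, Srsf3, Srsf5 and Snrpb. At 20 to 100 RPKM the relative medians were -0.04 for 37 members and 0.12 for all genes, at 5 to 20 RPKM 0.04 for 19 members and -0.04 for all, and at 1 to 5 RPKM 0.11 for 3 members and -0.12 for all.

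**Figure D3:**
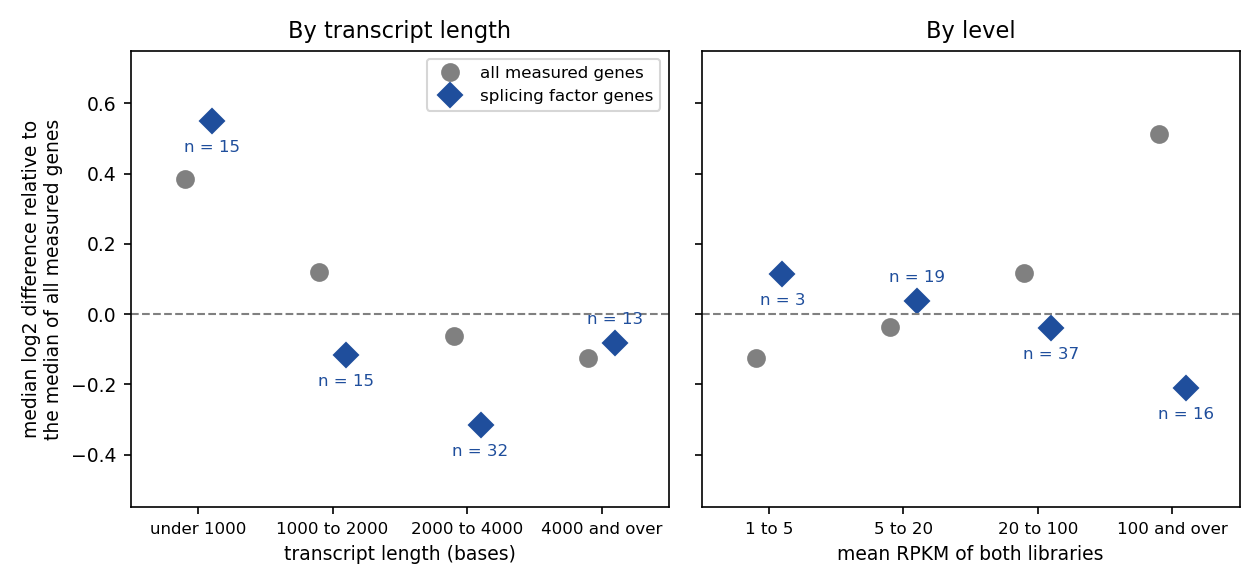
Median log2 difference relative to the median of all measured genes (y axis) in classes of transcript length in bases (left) and of mean RPKM (right), grey circles for all measured genes and blue diamonds for the splicing factor genes, with the number of members beside each diamond. Both fall from the shortest to the 2000 to 4000 base class on the left, and on the right the genes over 100 RPKM split, at 0.51 for all genes and -0.21 for the 16 members.

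Chromosome 2 stood apart from the others in these libraries. Its 851 measured and placed genes had a relative median of -0.40, with 72.3% below the all-gene median, and the next lowest chromosome, 7, had -0.12. Cut into 4 stretches of equal gene number, it had relative medians of 0.03, -0.40, -0.49 and -0.70 from its start to its end. The 8 members on it, among them Prpf18, Hnrnpa3, Snrpb, Snrpb2, Srsf6, Lsm14b and Prpf6, all lay below the all-gene median, Snrpb2 by 0.002. Prpf6 lies near the end, and its 14 nearest measured neighbours, counted over both sides together, had a median difference of -1.31, 9 of them lower by 2-fold, against -1.18 for Prpf6. Srsf6 was at -0.98 with neighbours at -0.96, and Snrpb at -0.59 with neighbours at -0.71. Snrpa and Sf3a2 differed from their surroundings. Snrpa on chromosome 7 was below all 20 of its neighbours, whose median was -0.37, and Sf3a2 on chromosome 10 was below all 20 of its own, at -0.30. Snrpg on chromosome 6 was above all 20, at -0.29. Of the 70 members with 20 measured neighbours these were the only ones outside the range of their neighbours. Snrpa and Sf3a2 had the lowest differences of the measured members and Snrpg the highest. A place beyond all neighbours was thus partly set by that choice, and the share over all genes was not computed. Without chromosome 2, 2 of 67 measured members were lower, where 12.4% of 10489 measured genes were, and the members' relative median was 0.01. The part of chromosome 2 in the other results was not tested.

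**Figure D4:**
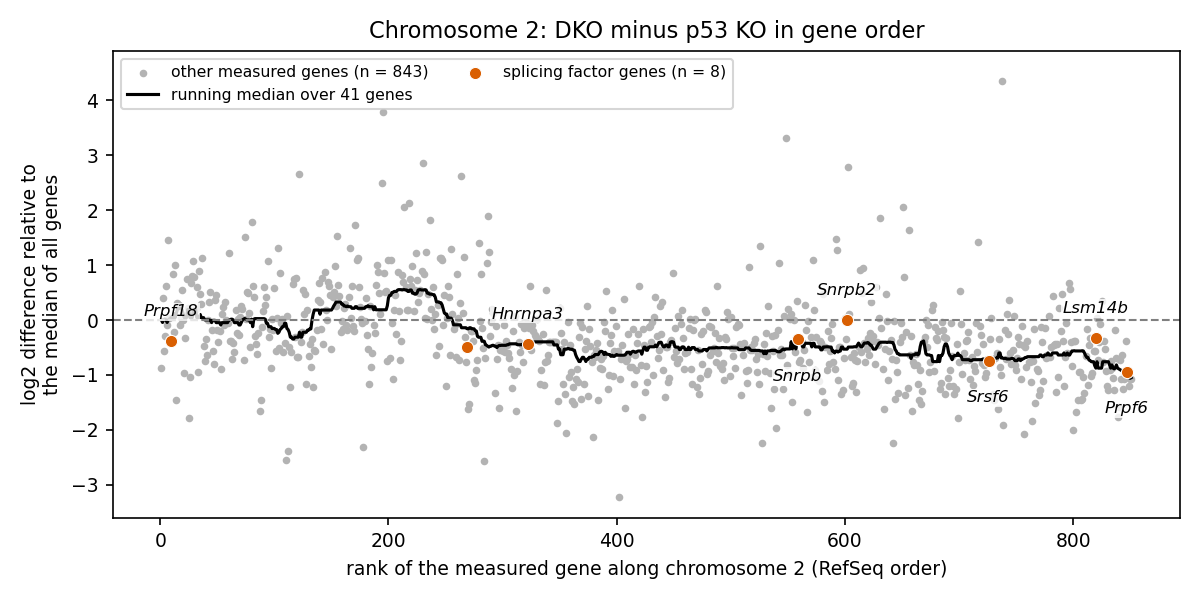
Log2 difference of each measured gene of chromosome 2 relative to the median of all measured genes (y axis) against its rank in gene order along the chromosome (x axis), grey for 843 other genes and orange for the 8 splicing factor genes, with a running median over 41 genes in black. The running median lies around 0 or above it in most of the first of the 4 stretches and below it from early in the second on, and Srsf6 and Prpf6 lie on it.

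The table lists 121 transcripts of the members, and 23 members had more than 1 measured transcript. In 20 of them the transcripts lay within 0.1 of each other on the log2 scale. The exceptions were Srsf10, Hnrnpa2b1 and Hnrnpa3. Transcripts of a gene can share most of their reads, so such closeness is not that of separate measurements. The longer transcripts of Hnrnpa3, for example, each had 5934 and 4310 reads. Srsf10 had the widest gap. Its transcript NM_001080387, which ends in the proximal last exon and holds 262 codons, was at 60.7 RPKM in p53 KO cells and 20.5 in DKO cells (2818 and 1109 reads, ratio 0.337, 0.315 to 0.362). Its transcript NM_010178, which ends in the distal last exon and holds 183 codons, was at 66.3 and 37.7 RPKM (3853 and 2552 reads, ratio 0.568, 0.540 to 0.597). Each has 6 exons in the GENCODE M21 annotation, of which 5 with 971 bases are shared, so the counts are not independent where shared reads were counted for both, and the intervals did not overlap. The last exons have 2087 and 2783 bases in that annotation. The lengths recovered from the deposited values were 2716 and 3400 bases, so the counted transcripts do not match it exactly. The log2 differences in level were -1.52 and -0.80, so the call for Srsf10 depends on the transcript. Hnrnpa3 had -0.97 for its shorter transcript and -0.67 for the others, and Hnrnpa2b1 had -0.66 and -0.51.

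Splicing genes outside the name rule were read from a list of other spliceosome and splicing regulator genes. Of 136 of them in the table, 132 were measured, none was higher (6.6% of all measured genes were) and 7 were lower (13.5%). Their relative median was -0.03, close to the members' -0.04. Ewsr1, which codes for an RNA-binding protein, was at 85.4 RPKM in p53 KO cells and 41.7 in DKO cells (-1.02). Wdr77, a subunit of the methylosome that modifies Sm proteins before snRNP assembly, was at 58.7 and 23.0 RPKM (-1.32). The splicing regulators Tia1, which helps U1 at weak sites, and Celf1 were at 54.4 and 22.2 RPKM (-1.25) and at 4.56 and 1.10 RPKM (-1.40). Snrnp70, given above, and Crnkl1, a catalytic-step protein at 22.2 and 10.6 RPKM, were also among the 7, and Celf1 and Crnkl1 are on chromosome 2. Zrsr2, a minor spliceosome factor mutated in myelodysplastic syndromes, was at 7.32 and 5.02 RPKM (-0.47). At the upper end, Bud31 was at 55.6 and 105 RPKM (0.90) and Smn1, the snRNP assembly gene, at 28.3 and 49.7 (0.79), and both were picked for their values.

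The authors' deposited table gives its own comparison, with 1 normalization constant per library (1.30144 for p53 KO and 1 for DKO). In the authors' deposited table the log2 change of the 75 measured members was above 0 for 51 and below 0 for 24, and the GFOLD value, a cautious version of it, was above 0 for 47, below 0 for 16 and 0 for 12. The corresponding shares over all measured genes are not given here. With the authors' constants, the all-gene median on log2(RPKM + 1) was 0.28, so most measured genes lay above 0 on that scale too. The members' relative median there was 0.03. The error rate column of the authors' deposited table was 1 for every transcript. The authors' log2 changes lay 0.585 to 0.604 above the differences of log2 RPKM for the 75 measured members, so a direction drawn from that table is not always the direction of the RPKM columns. Snrpa, Sf3a2 and Prpf6 were below 0 on both.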

How the data were processed

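RNA-seq of sorted LSK cells was used, with 1 library per genotype. Per the labels' protocols, total RNA was selected with oligo-dT, copied and amplified with a SMART cDNA kit, fragmented and sequenced from both ends at 100 bases; without molecular identifiers, amplification can distort low values. The tools bcl2fastq 1.8.4 and TopHat2 2.1.0 and the build mm9 are listed in the submitters' processing notes. Per the file headers, gfold 1.1.4 made the table, and the authors deposited RPKM values, a log2 change, a GFOLD value and an error rate given as a q-value for each of 28344 RefSeq transcripts. The p53 KO library carries the name WT in its title and in the header. The header lists it first and the DKO library second, and the RPKM columns were matched to them in that order. Strandedness, and how reads with several matches were handled, are not given in the sources used here; overlapping antisense genes cannot be told apart.

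From the deposited RPKM values, log2(RPKM + 1) differences were computed with Python 3.11.15, pandas 2.3.3, NumPy 2.4.6 and SciPy 1.17.1 over genes that averaged 1 RPKM or more. Whole read counts were recovered from the RPKM values, the read totals in the header and the authors' deposited log2 column. Exactly 1 solution existed for 97.5% of 24644 transcripts with reads and for 72 of the 78 members; for the other 6 the fewest reads that match were used for intervals. The recovery was checked on simulated data. A count test was not run, since each genotype has 1 library.

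The members and all gene lists were chosen with earlier results of these data known. Named were the genes past 2-fold, those within 0.1 of it, the highest, lowest and most abundant gene of each role, Sf3b1, Srsf2, U2af1, Zrsr2 and Prpf8, up to 6 other splicing genes each way, and Kdm6a and Trp53. Other members named beside them, such as ring partners and subunits of the same complex, were chosen after their values were seen. So were Crnkl1, Bud31, Smn1, Hnrpll and Hnrpdl. Myc was named outside this rule. Gene order came from the RefSeq table given for mouse and promoters from RefSeq GRCm38.p6, neither of which is the build of the deposited table, so no coordinate was carried between builds. Figures were drawn with matplotlib 3.10.9. Protein sequences were not used here. Some genes that the naming rule takes are not reported here. Alternatives changed the pseudocount, filter, scaling, transcript choice and fold rule.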

Additional observations from a re-analysis of the deposited data

How the results depend on the processing

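The members' relative median, -0.04 as reported, ranged from -0.16 without a filter to 0.03 with the authors' constants. None of the members was higher as reported. Centred on genes that averaged 5 RPKM or more, 1 was higher, where 8.91% of all genes were. With equal upper quartiles 1 was higher (8.36% of all genes), as was 1 with the 2-fold rule taken relative to the all-gene median (9.63%). With a 1.5-fold rule 3 were higher (13%), and with the authors' constants 7 were (16.5%). The 3 lower members became 19 with equal summed RPKM, where 23.9% of all genes were lower, and 24 with a 1.5-fold rule (29.6%). They numbered 2 to 4 under the other settings, where 4.19% to 18.7% of all genes were lower. The relative median of the other splicing genes, -0.03, was -0.16 without a filter. Between these values only the setting was changed, whether scaling, pseudocount, filter, fold rule, transcript choice or the genes of chromosome 2. Snrpa lay between -2.39 and -1.47, Sf3a2 between -2.20 and -1.26 and Prpf6 between -1.51 and -0.63. Each move of a named gene was set against the mean reach of its counting interval to either side. Of 350 values of 35 named genes under alternatives, 218 moved by no more than this reach and 132 by more. No called gene changed sign. The intervals are on log2 of the RPKM ratio and the moves on log2 of RPKM with a pseudocount added, so their scales differ. Leaving out chromosome 2 and the rule relative to the all-gene median were chosen after seeing the data. No paired analysis was possible because each genotype has 1 library, and no setting replaces a replicate. Depth limits Srsf12, Snrpn and Snrpf, at under 1 RPKM, and Lsm5.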

Other observations

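The splicing genes outside the name rule fall into lists by step, and most members of each lay within 2-fold, as did 79.9% of all measured genes. Of 25 measured genes of the Prp19 complex and the catalytic steps, 16 lay above the all-gene median and 9 below, and only Crnkl1 was lower by 2-fold. Of 17 tri-snRNP and other snRNP proteins 9 lay above and 8 below, with Snrnp70 lower. The list of tissue regulators and hnRNP-like genes lay lowest, with 9 of 31 above and a relative median of -0.18. It held 4 of the 7 lower genes, 4 of its 31, where 13.5% of all measured genes were lower. Of 20 SR kinases and SR-related genes 9 lay above and 11 below, and of 12 U2 and branch site genes 7 lay above and 5 below. Exon junction complex genes, whose products mark spliced mRNA, lay above in 8 of 12 cases. Genes of snRNP assembly lay above in 6 of 15 cases, with Smn1 at 28.3 RPKM in p53 KO cells and 49.7 in DKO cells and Wdr77 at 58.7 and 23.0.

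Myc, a transcription factor gene that is also known to act on snRNP assembly and splicing factor genes, was at 108 RPKM in p53 KO cells and 22.7 in DKO cells (4420 and 1084 reads, ratio 0.210, 0.197 to 0.225). The 7 measured members with CACGTG, an E-box that Myc is known to bind, in a promoter had a relative median of -0.43, and the 56 without it had -0.01. The 7 include Snrpa, and their median is the value of Hnrnpa3. That gene is on chromosome 2, and its 20 neighbours there had a relative median of -0.29. Over all measured genes with a promoter the medians were 0.002 for the 897 with the motif and -0.003 for the 8013 without. Members with each of the other motifs searched were also lower than those without, at -0.20 (18 members) against -0.04 for CCGGAAG, -0.11 (31 members) against -0.03 for CCAAT and -0.36 (1 member) against -0.04 for the NRF1 palindrome. These values are a description, and a link between them and the level of Myc was not tested.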
